A study of Mus musculus with 2 samples.

Results

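7SK RNA (Rn7sk) and 8 genes of the proteins that bind it or carry out the elongation step it controls were followed in total RNA of mouse common myeloid progenitors. They were taken by Ensembl gene identifier from the gene tables, and all 9 were found among 43346 Ensembl genes in each library. The 8 protein-coding members are Hexim1, Hexim2, Larp7, Mepce, Cdk9, Ccnt1, Ccnt2 and Supt5. The series has 1 group of 2 libraries, replicates 1 and 2, from male adult C57BL/6J mice of 5 to 6 weeks with no stated genetic change or treatment. The labels name a single donor for the pair, and the SDs given here may therefore be partly technical. Each library was made from 100 ng of total RNA depleted of ribosomal RNA. The labelled size range, which has no unit, is 200 to 1000 in replicate 1 but 187 to 1606 in replicate 2. With 1 group there is no contrast between conditions, and no test was run.

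Soon after RNA polymerase II starts a transcript it pauses, held by the factors DSIF and NELF. The kinase P-TEFb, made of Cdk9 and a T-type cyclin, releases it by phosphorylating DSIF, NELF and the tail of the polymerase. Much of the P-TEFb in a cell is kept inactive in a particle built on 7SK RNA, a short transcript of RNA polymerase III. In that particle Mepce caps the 5′ end of 7SK, Larp7 holds its 3′ end, and Hexim1 or Hexim2 bound to the RNA inhibits Cdk9. Hexim1 is named for its induction by hexamethylene bisacetamide, a compound known to make erythroleukaemia cells differentiate.

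Over Ensembl genes, replicate 1 held 28158803 expected counts (estimated reads per gene) and replicate 2 held 84041054, 2.98 times as many. A count of 0 allows up to 3 counts, or 0.107 CPM in replicate 1 and 0.0357 CPM in replicate 2, for counting error only. CPM is counts scaled to a common total over Ensembl genes. The labelled cell type was set beside a short list of markers, none of them chosen to separate it from other myeloid progenitors. Cd34 and Kit stood at 123 ± 2.84 and 36.6 ± 4.47 TPM (SD, n = 2), while Ly6a stood at 0.71 ± 0.0283 TPM. TPM is a share of all transcripts, scaled to the same total in every library and corrected for the effective length of a gene model, the part in which a sequenced fragment can start. Il7r stood at 0.96 and 0.13 TPM in replicates 1 and 2. Of 7 markers of mature lineages, 6 were under 1 TPM in both libraries, Cd3e and Cd8a had 0 counts in both, and the 7 summed to 3.64 and 3.38 TPM. The exception was Itgam, an integrin of myeloid cells, at 2.35 and 3.01 TPM, from 762 and 2474 counts. Of 21461 nuclear protein-coding genes, 42.5% reached 1 TPM in both libraries, so most fell short in at least 1 library. A level under 1 TPM is also not absence, and Il7r had 218 and 76 counts. In RNA of many cells, fewer cells of a type and less RNA per cell cannot be told apart.

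The Rn7sk model (ENSMUSG00000065037.1) is a single exon of 331 nt on the minus strand of chromosome 9, from 78175303 to 78175633 in GRCm38, annotated as a miscellaneous RNA. A pair of stretches of it carries the results below. The first holds the 5′ end, where human HEXIM1 is known to bind GAUC repeats of the hairpin, with each GATC of the DNA strand in capitals. The second starts after base 241, where most related copies stop resembling 7SK, with the run of T at the annotated 3′ end in capitals. Sequences are given 5′ to 3′ as in the GENCODE M21 transcripts.
Rn7sk bases 1 to 110, chr9:78175524-78175633, minus strand: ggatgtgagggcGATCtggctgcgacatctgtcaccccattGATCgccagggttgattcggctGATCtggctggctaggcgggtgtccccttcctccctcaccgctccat
Rn7sk bases 242 to 331, chr9:78175303-78175392, minus strand: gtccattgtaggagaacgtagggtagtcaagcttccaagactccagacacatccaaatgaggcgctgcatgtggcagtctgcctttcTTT

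GATC, which reads the same on both strands, occurred 3 times in Rn7sk, at bases 13, 42 and 64 counted from the 5′ end, and all 3 lie in the first 110 bases. Of 129281 other annotated transcripts of at least 331 nt, 61.9% held GATC at least 1 time in their first 331 bases and 7.99% held it at least 3 times. The match describes these letters, shows no binding, and does not tell which of the 3 lie in the hairpin that human HEXIM1 binds.

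Rn7sk was the most abundant of all Ensembl genes, both by mean TPM and by mean share of counts. It had 1901817.01 expected counts in replicate 1 and 6481328.44 in replicate 2, or 67539 and 77121 CPM. These made up 6.75% and 7.71% of the counts of Ensembl genes, on average 7.23% ± 0.678 (SD, n = 2). The exact 95% binomial intervals, 6.745 to 6.763% and 7.706 to 7.718%, are far narrower than the gap between the libraries and cover counting error only. The 8 protein-coding members together held 0.0603% of counts in replicate 1 and 0.0604% in replicate 2. Rn7sk therefore had 112 and 128 times as many counts as all of them together.

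On the per-length scale the share of Rn7sk was larger and depended on the length used. Its TPM were 205891.5 in replicate 1 and 250933.61 in replicate 2, or 20.6% and 25.1% of all TPM. These TPM shares run over all 69691 entries, whereas the count shares run over the 43346 Ensembl genes. The effective length given to it was 121.17 nt in replicate 1 and 132.64 nt in replicate 2, which is 36.6% and 40.1% of its 331 nt. With counts divided by the full length of each gene model instead, its share was 24.1% and 27%. Over entries of at least 200 nt, its share of TPM was 37.8% and 40.5%. It was higher in replicate 2 on each of these scales. The interval bounds deposited with its TPM, 201976 to 202945 in replicate 1 and 248470 to 249024 in replicate 2, do not overlap, and in each library lie below the TPM itself. They surround the posterior mean TPM, 202460.82 and 248744.99.

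**Figure D1:**
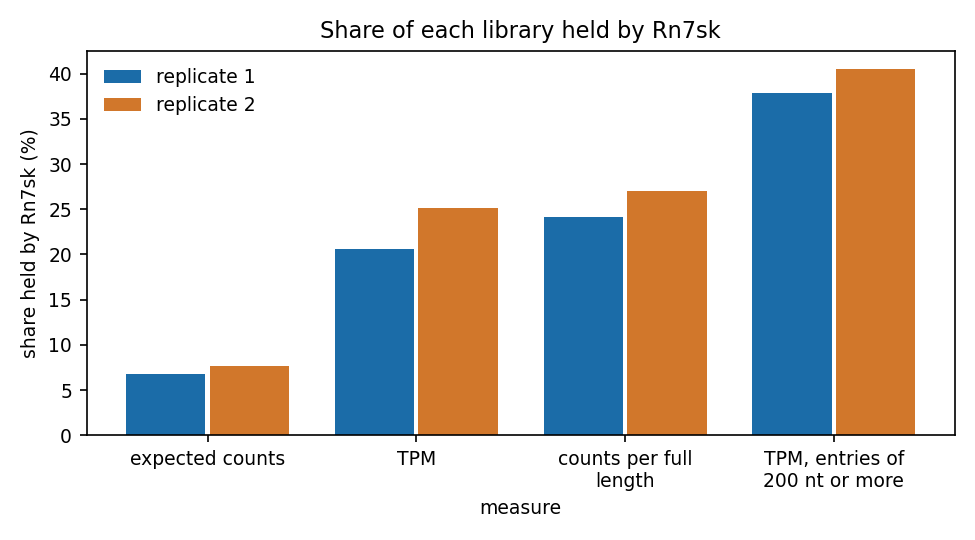
Share of each library held by Rn7sk, in percent, by measure: expected counts of Ensembl genes, TPM, counts per full length of the gene model, and TPM over entries of at least 200 nt. Each bar is 1 library, with replicate 1 left of replicate 2; the share runs from 6.75% of counts to 40.5% of TPM over longer entries.

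The genes nearest to Rn7sk in level lay below it in both libraries. By distance in log2(TPM + 1) over both libraries, among 42462 named genes, the nearest were the snoRNA gene Gm22422, the snRNA gene Gm22513 and Rpph1, the RNA of RNase P. Their distances were 3.13, 3.55 and 3.93. Gm22422 stood at 120831.69 and 30650.84 TPM in replicates 1 and 2, from 34334 and 30337 counts, so it was much nearer to Rn7sk in replicate 1 than in replicate 2. Rpph1, at 319 nt the closest of these in length to Rn7sk, stood at 32519.45 and 33916.67 TPM, from 273363 and 802425 counts. Gm22422 is a model of 135 nt and Gm22513 one of 164 nt, with 27394.89 and 113254.6 counts for Gm22513. By counts Rpph1 was thus the highest of these genes, and the nearness of Gm22422 by TPM depends on the length correction. With 2 libraries, this likeness is one of level and not of a pattern across conditions.

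Many annotated genes resemble 7SK, and reads could be divided among them. Of annotated transcripts, those of 39 other genes matched Rn7sk at 80% identity or more over at least 100 nt. In 36 of these, on 17 chromosomes, the match covered at least 50% of the transcript or of Rn7sk. In 35 of the 36, no alignment went past base 249 of Rn7sk. The exception, Gm23037, matched from base 1 to base 331 at 89.2% identity and had 0 counts in replicate 1 and 1 in replicate 2.

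Gm24447, a gene of 338 nt on chromosome 15, carries the same 241 first bases as Rn7sk, letter for letter, and then differs. Gm26315, a gene of 321 nt on chromosome 2, is identical to Rn7sk over 235 bases from base 5. Their later bases are shown beside those of Rn7sk above, to let a reader see where the resemblance ends.
Gm24447 bases 242 to 338, chr15:93234604-93234700, plus strand: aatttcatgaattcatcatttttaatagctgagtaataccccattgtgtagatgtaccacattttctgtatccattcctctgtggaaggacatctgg
Gm26315 bases 242 to 321, chr2:7076094-7076173, minus strand: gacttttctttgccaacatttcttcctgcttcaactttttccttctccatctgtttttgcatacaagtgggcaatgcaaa

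Few counts were given to these copies. Of the 36, 28 had 0 counts in both libraries and 7 reached 10 counts in either. Gm26315 had 247.72 counts in replicate 1 and 1532.02 in replicate 2, and Gm24447 had 50.5 and 533.57. For both genes replicate 2 exceeded replicate 1 by more than the 2.98-fold difference in depth. Gm24146 had 216.21 and 305.28 counts, Gm22058 had 42.24 and 219.29, Gm26035 had 26.4 and 48.39, and Gm23973 had 8.92 and 20.01. Gm24893 had 0 and 31. Together the 36 copies held 592 and 2691 counts, which is 0.0311% and 0.0415% of the counts of Rn7sk and its copies. Fractional counts show that some reads were shared out between models. A read from inside the first 241 bases cannot be told by sequence between Rn7sk and Gm24447, so the split between those genes is uncertain. The sum over the pair does not depend on that split. It does depend on the reads given to Gm26315, which is identical to Rn7sk over 235 bases from base 5.

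**Figure D2:**
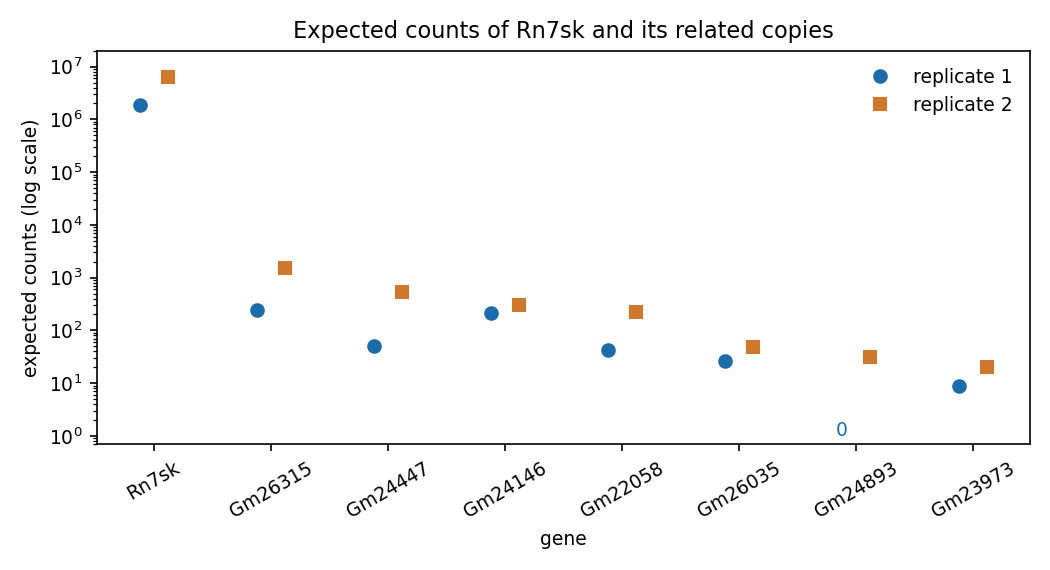
Expected counts on a log scale for Rn7sk and the 7 related genes that reached 10 counts in either library, circles for replicate 1 and squares for replicate 2, with a 0 written where a library had none. Rn7sk had 1901817.01 and 6481328.44 counts, and the highest copy, Gm26315, had 1532.02 in replicate 2.

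The protein-coding members spanned a wide range of levels. All but Hexim2 reached 1 TPM in both libraries, 7 of 8, beside 42.5% of 21461 nuclear protein-coding genes. The TPM total is shared with Rn7sk and all other entries, which lowers the TPM of protein-coding genes. With TPM rescaled over nuclear protein-coding genes alone, Hexim2 stood at 2.64 and 2.14 in replicates 1 and 2. Hexim1 stood at 29 and 27.5 on that scale. A level under 1 TPM here is therefore not absence. The median of the 8 protein-coding members was 10.2 TPM in replicate 1 and 11.7 TPM in replicate 2. Among the 9116 nuclear protein-coding genes that reached 1 TPM in both libraries, the median was 6.71 and 7.77 TPM. The median over all nuclear protein-coding genes was 0.29 and 0.35 TPM. The highest member, Larp7, stood 66 times above the lowest, Hexim2, by mean TPM.

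The proteins that stabilise 7SK differed in RNA level. Larp7 (chromosome 3, 127536714 to 127553349) had 29.99 and 35.38 TPM in replicates 1 and 2 and averaged 32.7 ± 3.81 TPM (SD, n = 2), above 95.4% of nuclear protein-coding genes. Mepce, the capping enzyme (chromosome 5, 137781906 to 137787655), had 4.07 and 5.04 TPM, a mean of 4.55 ± 0.686 TPM. Larp7 thus stood 7.37 and 7.02 times above Mepce, a mean log2 ratio of 2.85 ± 0.05 (SD, n = 2), with no overlap between these genes. Protein-coding models held 65.8% of Mepce TPM in replicate 1 and 100% in replicate 2. The rest in replicate 1 was a retained intron model with 25.99 counts, so the small SD of the ratio depends on that model. Rn7sk stood 6865 and 7093 times above Larp7 by TPM. By counts over full length that ratio was 2838 and 3184, since the effective length shortens Rn7sk far more than Larp7. Related copies took few reads of either gene. Gm12666, which matches Larp7 at 98.4% over 764 nt, had 3.38 and 10.05 counts against 3806.62 and 11559.95 for Larp7. The copies of Mepce that were measured had 0 counts.

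The inhibitor genes Hexim1 and Hexim2 are neighbours on chromosome 11, on the same strand with 12703 bases between them, yet their levels lay far apart. Hexim1 (103116231 to 103119725) had 1459 counts and 5.83 TPM in replicate 1 and 3793 counts and 5.91 TPM in replicate 2, averaging 5.87 ± 0.0566 TPM. Hexim2 (103132429 to 103139876) had 54 counts and 0.53 TPM in replicate 1 and 153 counts and 0.46 TPM in replicate 2, averaging 0.495 ± 0.0495 TPM. Its deposited bounds were 0.471 to 0.93 TPM in replicate 1, and its level was 1.92 CPM with an exact Poisson interval of 1.44 to 2.5 CPM. Hexim1 stood 11 and 12.8 times above Hexim2, a mean log2 ratio of 3.57 ± 0.16 (SD, n = 2). With posterior mean TPM, the ratio was 8.32 and 10.7. Rn7sk stood 32373 and 39393 times above the sum of both genes by TPM, and 12702 and 16802 times by counts over full length. These are ratios of RNA and say nothing of protein amounts.

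By TPM over all annotated transcripts of a gene, the P-TEFb genes lay close to each other. Cdk9, the kinase (chromosome 2, 32705784 to 32713076), had 10.06 and 13.6 TPM in replicates 1 and 2, a mean of 11.8 ± 2.5 TPM. Ccnt1, which encodes cyclin T1 (chromosome 15, 98538689 to 98570923), had 10.9 and 16.45 TPM, a mean of 13.7 ± 3.92 TPM. Ccnt2, which encodes cyclin T2 (chromosome 1, 127774164 to 127808061), had 10.36 and 10.16 TPM, a mean of 10.3 ± 0.141 TPM. In replicate 1 the 3 lay within 10.06 to 10.9 TPM, whereas in replicate 2 Ccnt1 was the highest and Ccnt2 the lowest. Ccnt1 stood 1.05 and 1.62 times above Ccnt2, a mean log2 ratio of 0.38 ± 0.44, so the difference was smaller than the spread. Cdk9 stood at 0.473 and 0.511 of the summed level of both cyclin genes, a mean log2 ratio of -1.02 ± 0.08. These levels include transcripts not annotated as protein-coding, and protein-coding ones held 38% of Ccnt2 TPM in both libraries. They held 48.9% and 70.9% of Ccnt1 TPM, and 60.6% and 80.7% of Cdk9 TPM, in replicates 1 and 2. The ratios above are therefore not ratios of protein-coding RNA.

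Supt5, the large subunit of DSIF and a substrate of Cdk9 (chromosome 7, 28314891 to 28338746), had 13.18 and 13.27 TPM, a mean of 13.2 ± 0.0636 TPM. Supt4a, its small partner, had 15.12 and 15.28 TPM. Supt5 stood at 0.872 and 0.868 of Supt4a by TPM. By counts over full length it stood at 1.17 and 1.14 of Supt4a, so which of the pair was higher depended on the length correction. In order of mean TPM the members ran Larp7, Ccnt1, Supt5, Cdk9, Ccnt2, Hexim1, Mepce and Hexim2. Neighbours from Ccnt1 to Ccnt2 in that order overlapped across the libraries and changed order between them. Larp7, Hexim1, Mepce and Hexim2 did not overlap with their neighbours and kept their places in both libraries.

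**Figure D3:**
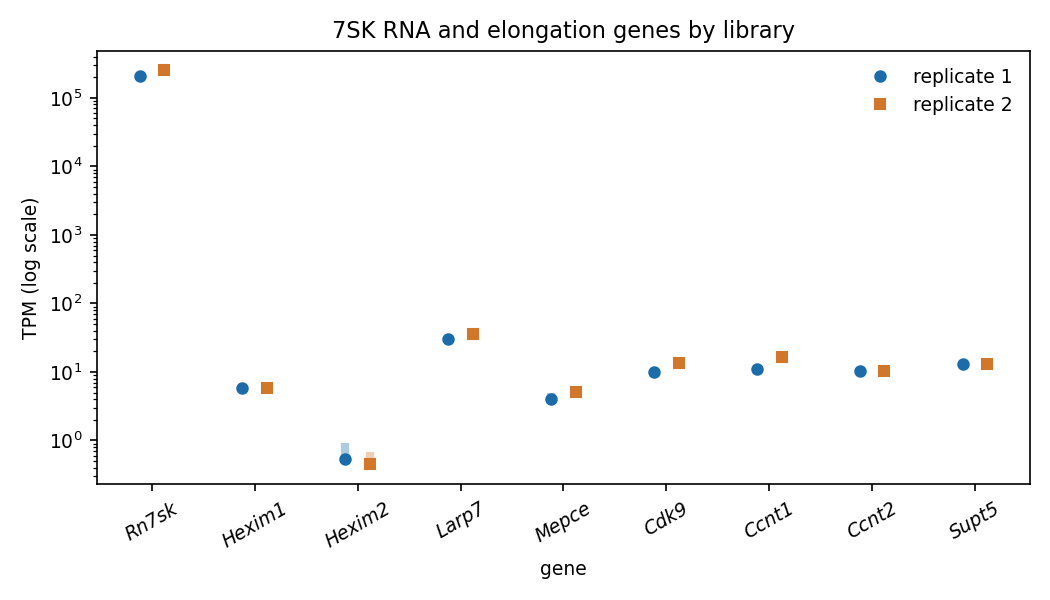
TPM of each of the 9 genes on a log scale, circles for replicate 1 and squares for replicate 2. Pale bars, mostly hidden by the symbols, are the interval bounds deposited per library; Rn7sk lies at 205891.5 and 250933.61 TPM, Larp7 leads the protein-coding genes, the P-TEFb genes and Supt5 lie together near 10 to 16.45 TPM, and Hexim2 lies under 1 TPM.

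The nuclear protein-coding genes nearest to Cdk9 in both libraries, by the same distance, were Pigx, Smg5 and Vasp, at distances of 0.018 to 0.019. Their levels were 10.16 and 13.73 TPM for Pigx, 10.2 and 13.63 TPM for Smg5 and 9.93 and 13.69 TPM for Vasp in replicates 1 and 2. The likeness is over 2 libraries of 1 condition.

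Between the libraries, no member differed 2-fold in counts. On the log2 CPM scale, replicate 2 over replicate 1 with TMM scaling, 0 of 9 members differed at least 2-fold, beside 5.37% of the 11803 genes that reached 1 CPM in each library. There was 1 library on each side, so nothing was tested. The largest ratios were 0.32 for Mepce, 0.28 for Ccnt1 and 0.20 for Rn7sk, and the lowest were -0.20 for Supt5 and Hexim1 and -0.19 for Ccnt2. Larp7 had 135 and 138 CPM, a ratio of 0.03. For Mepce, with 22.1 and 27.6 CPM, 64% of these genes had a smaller difference, and for Larp7 7.2% did.

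TPM showed larger gaps between the libraries than counts for some members. At the median gene, TPM were 1.16 times higher in replicate 2, a log2 shift of 0.21, and the ratios of TPM are read against that. Ccnt1 had a log2 TPM ratio of 0.59 and Cdk9 of 0.43, whereas Ccnt2 had -0.03, Supt5 0.01 and Hexim1 0.02. Those of Ccnt2, Supt5 and Hexim1 lay below the shift, and their count ratios were -0.187, -0.205 and -0.196. The small SDs of their TPM therefore do not mean that their share of counts was alike in the libraries. For Cdk9 the count ratio was 0.13 and its effective length was 1462.52 nt in replicate 1 and 1384.5 nt in replicate 2. For Ccnt1 the effective length was 4157.37 and 3902.02 nt. The deposited TPM bounds of Cdk9, 9.17 to 11.2 and 13.1 to 14.1, did not overlap between the libraries. Those of Ccnt1, Larp7 and Rn7sk did not overlap either, while those of the other 5 members did. These bounds are not corrected for the shift of the median gene. The log2 TPM ratio of Larp7, 0.24, was near that shift, and that of Rn7sk, 0.28, was little above it.

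Which annotated transcripts carried each gene was read from transcript TPM, wherever both libraries gave the gene 100 expected counts or more. Hexim2 did not reach that. Rn7sk, Hexim1, Larp7 and Supt5 have 1 transcript each in the tables. In Ccnt2, protein-coding transcripts held 38% of TPM in both libraries, retained intron models held 42.6% and 43.6%, and a processed transcript held 19.4% and 18.5%. By expected counts, which are not corrected for length, the order of these classes differed. Protein-coding transcripts held 47.7% and 47.2% of Ccnt2 counts, the processed transcript held 36.1% and 33.1%, and retained intron models held 16.1% and 19.7%. The protein-coding pair, Ccnt2-201 with 723 codons and Ccnt2-202 with 657 (coding length with the stop codon left out), held 13.3% ± 1.83 and 24.7% ± 1.86 of its TPM. Ccnt2-202, the shorter coding form, was thus the higher of the pair by TPM.

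Cdk9 and Ccnt1 had a different make-up in each library. In Cdk9, 60.6% of TPM in replicate 1 and 80.7% in replicate 2 fell to protein-coding models, and retained intron models held 35.9% and 17%. Cdk9-201, with 372 codons, held 27.4% and 27.2%, while Cdk9-202, with 321 codons, held 33.2% and 52.5%. By expected counts the protein-coding share of Cdk9 was 59.2% and 81.9%, close to that by TPM. In Ccnt1, protein-coding models held 48.9% and 70.9% of TPM but 80.3% and 89.8% of expected counts. The model annotated for nonsense-mediated decay, Ccnt1-206, held 26.6% and 6.69% of TPM but 11.5% and 3.1% of counts. The Ccnt1 make-up thus depended on the scale, and on both scales its protein-coding share was lower in replicate 1. Ccnt1-201 and Ccnt1-208 encode the same 724 codons but have 2175 and 7397 nt. Ccnt1-208 held 45.6% and 40.3% of TPM, and Ccnt1-201 held 3.3% and 30.7%, from 54.22 and 1937.51 counts. In Mepce a retained intron model of 460 nt took 34.2% of TPM in replicate 1, from 25.99 counts or 4.18% of the gene's counts, and none in replicate 2. The lower protein-coding shares of Cdk9, Ccnt1 and Mepce were all in replicate 1, the shallower library, and the part of depth and fragment size in this was not tested.

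**Figure D4:**
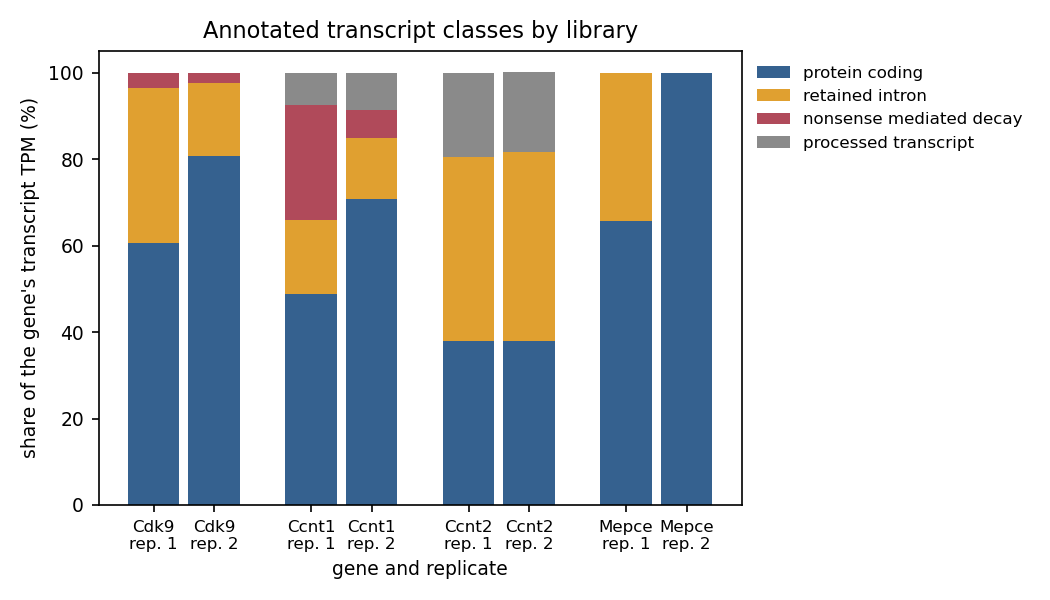
Share of each gene's transcript TPM, in percent, held by annotated transcript classes in Cdk9, Ccnt1, Ccnt2 and Mepce, with 1 bar per library. The Ccnt2 bars are alike, with 38% protein-coding in both, while the protein-coding part is larger in replicate 2 for Cdk9 (80.7% against 60.6% in replicate 1), Ccnt1 and Mepce.

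Other annotated genes overlap the members. The antisense gene 9330020H09Rik shares 695 exonic nt with Ccnt1 on the opposite strand and had 296 and 763 counts. Gm44709, for which no counts were available, shares 433 nt with Supt5. Whether counting used strand is not given in the sources used here, so it is not known whether reads in those parts were told apart. The microRNA gene Mir2861 lies within an exon of Cdk9 and had 0 counts. The Mir302 genes and Mir367 lie in introns of Larp7 on the opposite strand and had 0 counts.

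The wider elongation machinery was read from 6 lists of 52 genes, Supt5 included, of which 50 reached 1 TPM in both libraries. Beside this, and beside the count of each list below, 42.5% of 21461 nuclear protein-coding genes did so. The genes that did had a median of 6.71 and 7.77 TPM in replicates 1 and 2, beside which the list medians are read. The pausing factors, DSIF and NELF, had a list median of 8.63 and 9.9 TPM in replicates 1 and 2, and 6 of 6 reached 1 TPM. Below Supt4a and Supt5 came the NELF subunits, from Nelfcd at 8.87 ± 0.184 TPM down to Nelfb at 8.23 ± 3.16 TPM and Nelfa at 4.52 ± 0.962 TPM. Nelfb was uneven, with 6 TPM in replicate 1 and 10.47 TPM in replicate 2.

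The genes that bring P-TEFb to chromatin were more spread out. In the list of super elongation complex and BET genes, 10 of 12 reached 1 TPM, with a median of 3.94 and 5.79 TPM. Brd2, a BET bromodomain gene, led at 68.6 ± 4.42 TPM, followed by Aff4, the scaffold of the super elongation complex, at 16.7 ± 4.57 TPM and Brd3 at 7.93 ± 3.23 TPM. Ell3 had 0 counts in both libraries, and Eaf2, a partner of Ell proteins, had 0 and 1.

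Genes of factors that travel with the polymerase stood higher. The list of the PAF1 complex, Spt6, FACT and Tcea1 had a median of 19.3 and 21.6 TPM with 10 of 10 at 1 TPM. The FACT subunits Ssrp1 and Supt16 stood at 99.5 ± 13 and 57.5 ± 0.304 TPM, and Tcea1, which encodes elongation factor TFIIS, at 44 ± 4.31 TPM. Rtf1 and Cdc73 were the lowest at 9.74 ± 0.396 and 3.86 ± 1.56 TPM. Of the other kinases of the polymerase tail and their partners, 6 of 6 reached 1 TPM, with a median of 9.11 and 10.2 TPM. Ccnh and Cdk12 stood at 20.6 ± 1.92 and 13.7 ± 1.83 TPM and Cdk13 at 9.84 ± 0.573 TPM. Ccnk, the cyclin of Cdk12 and Cdk13, stood at 2.45 ± 0.778 TPM and Cdk7 at 2.41 ± 0.00707 TPM.

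RNA-binding proteins known to associate with 7SK outside the core particle had the highest list median, 77.7 and 105 TPM, with 8 of 8 at 1 TPM. Hnrnpa1, Hnrnpa2b1 and Ssb, the gene of the La protein that binds new RNA polymerase III transcripts, stood at 390 ± 16, 160 ± 15.5 and 153 ± 10.3 TPM. The lowest of this list, Dhx9 and Hnrnpr, stood at 57.5 ± 18.8 and 51.9 ± 8.06 TPM, above Larp7 in both libraries. Of the genes named from the lists, Tcea1, Hnrnpa1 and Hnrnpr had fractional counts, which leaves their levels uncertain where reads were shared with other models. Factors of the promoter class that 7SK belongs to, transcribed by RNA polymerase III from upstream elements, had a median of 7.42 and 6.96 TPM with 10 of 10 at 1 TPM. Snapc5, Bdp1 and Tbp led at 15.9 ± 1.79, 15 ± 0.262 and 11.5 ± 2.09 TPM. Snapc2 stood at 3.27 ± 0.212 TPM, and Brf2, the TFIIB-related factor of these promoters, was the lowest at 1.34 and 2.72 TPM, from 119 and 626 counts. Over the 6 lists, the RNA-binding proteins had the highest median and the super elongation complex and BET genes the lowest, in both libraries. The super elongation complex and BET median lay below that of the nuclear protein-coding genes at 1 TPM in both libraries. The median of the RNA polymerase III promoter factors lay above it in replicate 1 and below it in replicate 2.

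**Figure D5:**
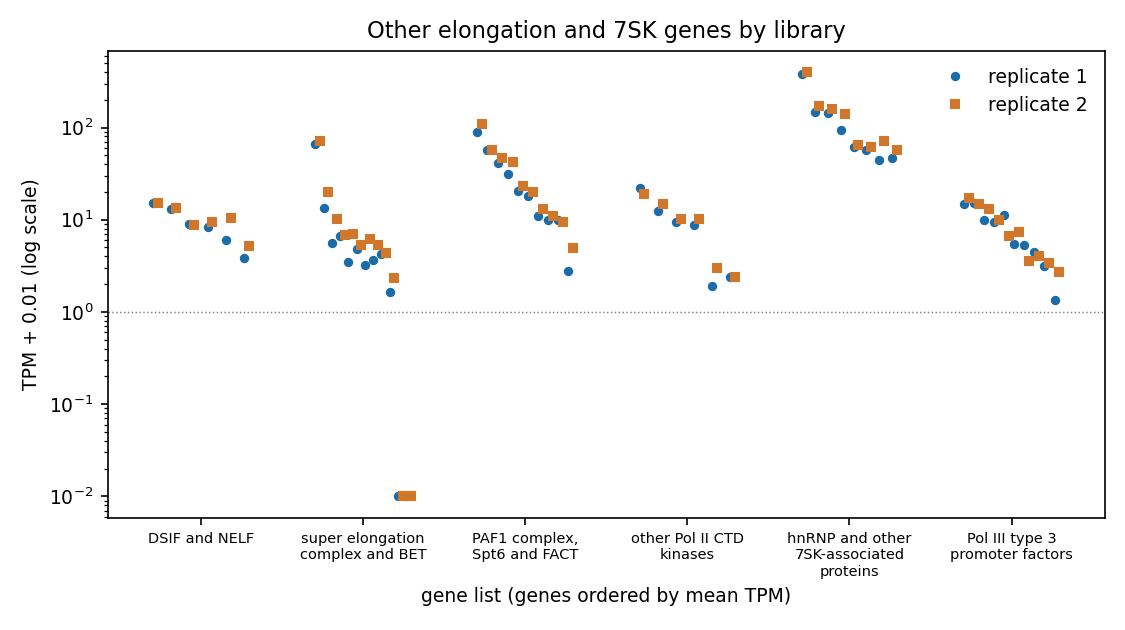
TPM, with 0.01 added for display on a log scale, of the 52 genes of 6 lists, ordered within a list by mean TPM, circles for replicate 1 and squares for replicate 2. The dotted line marks 1 TPM; 2 genes of the super elongation complex and BET list lie at the bottom of the scale and the other 50 lie above the line.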

How the data were processed

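Total RNA libraries of 2 replicates of 1 group were read from the deposited gene and transcript tables, which the deposited readmes place on mm10 and annotation GENCODE M4. For the aligner and the quantifier, names are not given in the sources used here. The authors deposited expected counts, which are estimated reads and can be fractional. The deposited TPM, and a posterior mean version of it, use an effective length for each model. FPKM, deposited in the same tables, served as an alternative after rescaling to the TPM total. Gene names and positions are those of GENCODE M21 (GRCm38), matched by gene ID for 42462 of 43346 Ensembl genes. Unmatched genes held 0.277% of the Ensembl gene counts in each library. A precision limit of 3 counts was 0.107 CPM and 0.0357 CPM in replicates 1 and 2.

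Ratios between libraries used rounded counts, TMM in edgeR 4.0.16 (R 4.3.3), a prior count of 0.5 and genes with at least 1 CPM in both. DESeq2 1.42.0 size factors were an alternative. Steps were tested on simulated data. Related copies were found with BLAST 2.17.0 at 80% identity over 100 nt. For Cdk9, Ccnt1, Ccnt2 and Supt5 such matches reached 1783 to 3793 genes and were not examined one by one, and the 50% coverage rule was added after seeing this. Named genes were the 9 members, the 3 highest and 2 lowest of each list, the 3 genes nearest to Rn7sk and to Cdk9, and copies with at least 10 counts in either library. Gm23037 was named after its values were seen. The members and lists were chosen with earlier results of these data known. Other software was Biopython 1.88, scipy 1.17.1, numpy 2.4.6, pandas 2.3.3 and matplotlib 3.10.9 under Python 3.11.15.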

Additional observations from a re-analysis of the deposited data

How the results depend on the processing

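No paired analysis was possible because there is 1 group. Of 17 main results, 10 kept their value within the spread, or within 1.5 times for counts, under each processing alternative run. Leaving out 1 of 2 replicates gives the other library's value, which by arithmetic lies within 1 SD of the mean and says nothing of stability. It was not possible for the share of genes differing between libraries, which needs both. Over entries of at least 200 nt, the share of TPM held by Rn7sk was 39.2%, against 22.8% over all entries. With counts over full length, the log2 ratio of Supt5 over Supt4a changed sign, at 0.206 against -0.201 by TPM. On that scale the log2 ratio of Cdk9 over both cyclin genes was -1.148, that of Rn7sk over the Hexim genes was 13.835 and that of Rn7sk over Larp7 was 11.554. These follow from effective lengths, which fall furthest below full length in short models. With posterior mean TPM, the log2 ratio of Hexim1 over Hexim2 was 3.235 and that of Supt5 over Supt4a was -0.205; the cause was not tested. With no filter on low counts, 29.6% of genes differed at least 2-fold between libraries, against 5.37% with it. The filter removes genes with few counts. The low counts of Hexim2, 54 and 153, limit its level and its transcripts most.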
